A study of Mus musculus with 25 samples.

Results

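JAK kinases, STAT transcription factors and the SOCS family of feedback inhibitors carry cytokine signals from the cell surface to the nucleus. A cytokine brings receptor chains together, the JAK kinases bound to them phosphorylate STAT proteins, and the STAT dimers enter the nucleus and activate genes, *Cish*, *Socs1*, *Socs2* and *Socs3* among them. The SOCS proteins then bind receptors or JAK kinases and end the signal. In hematopoietic stem and progenitor cells this route carries the signals of cytokines that govern survival and growth. The transcript levels of 10 listed genes, *Jak1*, *Jak2*, *Jak3*, *Stat3*, *Stat5a*, *Stat5b*, *Socs1*, *Socs2*, *Socs3* and *Cish*, were followed here in stem cells with and without *Znf143*. They were taken by name from a table of 23116 genes, which holds all 10, and all 10 passed the filter on low values.

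RNA-seq was available for HSLAM cells (LSK+ CD150+ CD48-), a bone marrow population enriched in hematopoietic stem cells, with 3 *Znf143 f/f* and 3 *Znf143 -/-* libraries. The mice were adult males of 8 to 12 weeks on a C57BL/6 background. All carried loxP sites on both sides of exon 1 of *Znf143* on both alleles, and all were given tamoxifen at the middle one of the tested doses over 10 days. The *Znf143 -/-* mice also carried *Rosa26ERT2-Cre*, a tamoxifen-dependent Cre under the ubiquitously active Rosa26 locus, which the *Znf143 f/f* mice lacked, so the deletion and the presence of active Cre cannot be told apart. The Cre is not limited to blood cells.

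The libraries held 38643255 to 57895793 fragments assigned to genes. Levels are given as rescaled FPKM, that is, FPKM (fragment counts normalised for gene length and library total) divided by 1 factor per library. The factors make the median gene level between libraries. Differences are log2 fold changes of *Znf143 -/-* over *Znf143 f/f*, fitted with limma on log2(rescaled FPKM + 0.1), and a gene is called at a Benjamini-Hochberg adjusted p under 0.05 over all 19296 genes tested. *Zfp143*, the name of the deleted gene in the table, had 3.07, 4.43 and 3.66 rescaled FPKM in *Znf143 f/f* libraries, compared with 0.155, 0.298 and 0.270 in *Znf143 -/-* libraries, 6.48% of the *Znf143 f/f* mean (log2 fold change -3.50 ± 0.239 (SE), limma adjusted p = 0.00101, and 0.0332 with close libraries averaged as described next). The sample labels name the deleted genotype a CTCF knockout, and these values match a deletion of *Znf143*.

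The 3 libraries of a genotype were not equally far apart. *Znf143 f/f* libraries 1 and 3, and *Znf143 -/-* libraries 2 and 3, differed by 2.00 and 2.25 times the variance that sampling of fragments gives, over genes with 100 to 500 fragments. The 4 other pairs within a genotype differed by 13.5 to 20.6 times that variance, and pairs across genotypes by 18.6 to 28.7 times. The close libraries still differed beyond sampling noise and were kept as separate samples, and each call on a gene of the pathway is also given with each close pair averaged to 1 sample. With the averages, 45 genes were called, 0.233% of those tested, against 1157 genes, 6.00%, with 6 samples. What makes these libraries close was not tested. The p-values measure the spread between libraries, and no source used here says which of the libraries form littermate pairs.

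All 8 listed stem cell markers passed the filter. Of the genes behind the sort, *Slamf1* (CD150) was at 5.14 to 9.03 rescaled FPKM, *Kit* at 19.4 to 22.1 in *Znf143 f/f* and 13.5 to 16.8 in *Znf143 -/-* libraries (limma adjusted p = 0.0659), and *Ly6a* (Sca-1) at 239 to 288 and 550 to 602, called higher with a log2 fold change of 1.13. *Mecom*, a stem cell transcription factor, was called lower with a log2 fold change of -0.55, and the 5 other markers, *Procr*, *Slamf1*, *Hlf*, *Fgd5* and *Hoxb5*, were not called. The T cell genes *Cd3e* and *Cd3g* and the B cell gene *Cd79a* did not exceed 0.0836 in any library, and *Cd3g* was at 0 fragments in all 3 *Znf143 f/f* libraries. Other markers moved with genotype. Of 38 marker genes tested, 8 were higher and 1 was lower in *Znf143 -/-* cells, against a background of 6.00% of all genes tested. With close libraries averaged, 1 of these calls, *Flt3*, held. The NK cell gene *Nkg7* and the monocyte or macrophage gene *Csf1r* were among the 8. *Csf1r* had 1, 0 and 3 fragments in *Znf143 f/f* libraries, so it passed the filter through the *Znf143 -/-* libraries alone. *Flt3*, a receptor of early multipotent progenitors, and *Cd48*, whose protein the sort excludes, had log2 fold changes of 1.59 and 0.97. The summed level of 6 neutrophil markers was 40.9 to 77.9 rescaled FPKM in *Znf143 f/f* and 116 to 142 in *Znf143 -/-* libraries, with *Elane*, *S100a8* and *Ngp* called higher. *S100a8* and *S100a9* made up most of it, *Mpo* overlapped between genotypes and *Ltf* had a log2 fold change of -0.0068. Other sums were apart too, among them those of the NK cell, megakaryocyte and stem cell lists, and these 3 rested mostly on 1 gene each. The NK cell sum (122 to 132 against 210 to 263) was almost all *Nkg7*. *Pf4* made up most of the megakaryocyte sum (530 to 604 against 650 to 980), of whose 5 genes 0 were called, and *Vwf* had a log2 fold change of -0.23. Most of the stem cell sum (351 to 411 against 649 to 705) was *Ly6a*. The sum of monocyte or macrophage markers was lower, with 546 to 586 against 434 to 451. It was almost all *Lyz2* (530 to 567 against 415 to 429), which was not called (limma adjusted p = 0.0731). The 2 other tested genes of that list, *Csf1r* and *Cd68*, had log2 fold changes above 0 (1.56 and 0.21). In bulk samples, more cells of a type and more RNA per cell cannot be told apart.

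None of the 10 genes was called, neither with limma on log2 rescaled FPKM nor with voom on the recovered fragments (0 of 10 each), against a background of 6.00% of all genes tested with limma and 7.26% with voom. At an unadjusted p under 0.05 there were 2, *Stat5b* and *Socs3*, against 24.2% of all genes. The same 2 genes were those whose libraries did not overlap between genotypes, against 30.8% of all genes, so that neither share exceeded the background. The median log2 fold change of the 10 genes was 0.10 beside 0.0075 for all genes tested, with 6 values above and 4 below 0. The members were measured with 478 to 13388 fragments per library.

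**Figure D1:**
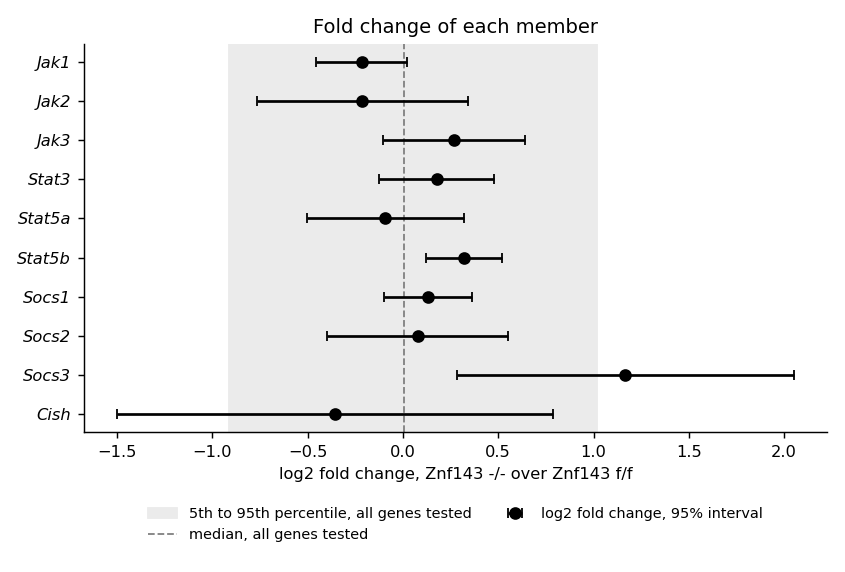
Log2 fold change of each of the 10 genes (points, with 95% confidence intervals from limma, 3 libraries per genotype) on the x axis. The grey band spans the 5th to the 95th percentile of all 19296 genes tested (-0.91 to 1.02) and the dashed line is their median. The intervals of *Stat5b* and *Socs3* lie above 0, the other 8 include 0, and *Socs3* is the only point beyond the band.

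The order of levels in *Znf143 f/f* cells was led by *Jak1* with a mean of 36.0 rescaled FPKM and *Jak3* with 23.1. These were followed by *Stat3* (16.1), *Socs2* (14.9), *Cish* (13.5), *Stat5a* (12.2), *Socs1* (9.58), *Stat5b* (9.31), *Socs3* (8.14) and *Jak2* (7.36). The ranges of *Jak1* and *Jak3*, and of *Jak3* and *Stat3*, did not overlap, whereas from *Stat3* downward each gene overlapped the next in the order. In *Znf143 -/-* cells, *Jak1* (31.0) and *Jak3* (27.6) overlapped, and *Socs3* had rank 4 with a mean of 17.0, where it had rank 9 in *Znf143 f/f* cells. *Jak2* was lowest in both genotypes. Levels are per listed length, which for 9 of the genes is the length of all annotated exons together. For *Socs1* the listed 1220 bases are shorter than the 2908 bases of its annotated exons, so its place in the order depends on the length chosen.

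**Figure D2:**
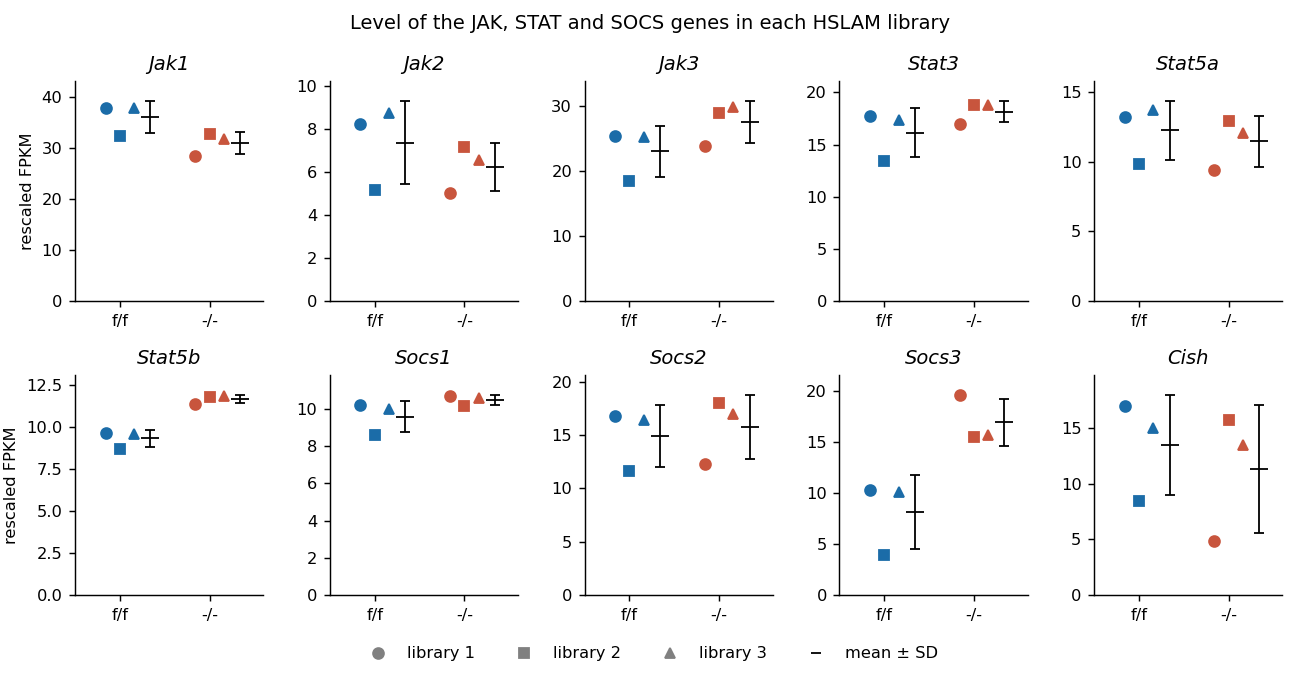
Rescaled FPKM (y axis, from 0) of each gene in the 3 *Znf143 f/f* (blue) and 3 *Znf143 -/-* (red) libraries, with library number by shape and the mean ± SD in black. The genotypes are apart for *Stat5b* and *Socs3*, and the libraries of the other 8 genes overlap.

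Of the kinases, JAK1 and JAK2 serve most cytokine receptors and JAK3 pairs with the common gamma chain encoded by *Il2rg*. *Jak1* (chr4:101152367-101265282, minus strand; all gene positions are from GENCODE release M21 on GRCm38) had 37.8, 32.4 and 37.8 rescaled FPKM in *Znf143 f/f* libraries 1 to 3 and 28.5, 32.7 and 31.7 in the *Znf143 -/-* libraries. *Znf143 f/f* library 2 and *Znf143 -/-* library 2 lay within the range of the other genotype. The log2 fold change was -0.22 ± 0.0999 (SE, 95% interval -0.45 to 0.023, adjusted p = 0.246, limma). *Jak2* (chr19:29251828-29313080, plus strand) had 8.21, 5.15 and 8.71 against 5.01, 7.17 and 6.53 rescaled FPKM. In each genotype 1 library was low, library 2 of *Znf143 f/f* and library 1 of *Znf143 -/-*, and the groups overlapped. The log2 fold change of *Jak2* was -0.21 with a 95% interval from -0.77 to 0.34 (limma adjusted p = 0.627).

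*Jak3* (chr8:71676296-71690575, plus strand) had 25.5, 18.5 and 25.3 rescaled FPKM in *Znf143 f/f* libraries, compared with 24.0, 29.1 and 29.9 in *Znf143 -/-* libraries. *Znf143 -/-* libraries 2 and 3 lay above every *Znf143 f/f* library, and library 1 lay among them. The log2 fold change was 0.27, with a 95% interval from -0.10 to 0.64 (limma adjusted p = 0.348). *Jak3* overlaps *Insl3* over 1362 bases on the same strand, so reads there can belong to either gene. The estimates were below 0 for *Jak1* and *Jak2* and above 0 for *Jak3*, and none was called.

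Of the STAT genes, *Stat3*, *Stat5a* and *Stat5b* lie side by side on chromosome 11. *Stat5a* and *Stat5b* are close paralogs whose proteins act downstream of IL-3 and other cytokines, and reads that match both cannot be assigned with certainty. *Stat5b* (chr11:100780731-100850724, minus strand) had 9.63, 8.71 and 9.59 rescaled FPKM in *Znf143 f/f* libraries, compared with 11.4, 11.8 and 11.8 in *Znf143 -/-* libraries. All 3 *Znf143 -/-* libraries were above all 3 *Znf143 f/f* libraries, and their spread was small (SD 0.519 and 0.249, n = 3 each). The mean was 1.25 times that of *Znf143 f/f* cells, and the log2 fold change was 0.32 ± 0.0837 (SE, 95% interval 0.12 to 0.52). The adjusted p of limma was 0.0740, ranged from 0.0541 to 0.613 over the alternatives, and reached its highest value with close libraries averaged. The exact two-sided permutation test over the 6 libraries gave p = 0.1, the smallest that 3 against 3 allow.

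*Stat5a* (chr11:100859351-100885169, plus strand) did not share this pattern in its values. It had 13.2, 9.81 and 13.7 rescaled FPKM in *Znf143 f/f* and 9.41, 12.88 and 12.02 in *Znf143 -/-* libraries. The groups overlapped over most of their range, and the log2 fold change was -0.092 (95% interval -0.50 to 0.32, limma adjusted p = 0.792). Its sign was positive, 0.021, on the FPKM as deposited and 0.041 without *Znf143 -/-* library 1. *Stat3* (chr11:100885098-100939540, minus strand), the STAT protein of the IL-6 family receptors, had 17.7, 13.4 and 17.4 rescaled FPKM against 17.0, 18.7 and 18.7. *Znf143 -/-* libraries 2 and 3 lay above all others, and the low value was that of *Znf143 f/f* library 2. The log2 fold change was 0.18 (95% interval -0.12 to 0.48, limma adjusted p = 0.441). The ends of *Stat3* and *Stat5a* overlap by 72 bases on opposite strands, and the library kit does not mark strand.

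The largest fold change and the widest spreads of the 10 genes lay among the SOCS genes. *Socs3* (chr11:117966079-117970047, minus strand) encodes the inhibitor of the IL-6 and G-CSF receptors and of JAK kinases. It had 10.3, 3.92 and 10.2 rescaled FPKM in *Znf143 f/f* libraries, compared with 19.7, 15.5 and 15.7 in *Znf143 -/-* libraries. All *Znf143 -/-* libraries were above all *Znf143 f/f* libraries, and *Znf143 f/f* library 2 was far below its group. The ratio of means was 2.08, and the log2 fold change was 1.17 ± 0.370 (SE, 95% interval 0.28 to 2.05, limma adjusted p = 0.118; exact permutation p = 0.1, the smallest possible). Without *Znf143 f/f* library 2 the difference was smaller and its error narrower, at 0.71 ± 0.125 (SE). The limma adjusted p was then 0.0303, so that 1 library decides whether *Socs3* is called. The *Znf143 f/f* group of that fit is the close pair alone, so its error rests in part on the small spread between close libraries. That fit called 2239 genes over the whole table, against 1157 with all libraries. Over the alternatives the log2 fold change of *Socs3* stayed between 0.71 and 1.45, and the adjusted p between 0.0303 and 0.342, the highest value coming from the fit with close libraries averaged. Whether the higher summed level of neutrophil markers in *Znf143 -/-* libraries plays a part in this value was not tested.

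*Cish* (chr9:107296026-107302784, plus strand), a STAT5 target gene whose product inhibits STAT5 signaling, varied most within a genotype. It had 17.0, 8.40 and 15.0 rescaled FPKM in *Znf143 f/f* libraries, compared with 4.81, 15.7 and 13.4 in *Znf143 -/-* libraries. *Znf143 -/-* library 1 was lowest of all 6 and library 2 was second highest, and the groups overlapped. The log2 fold change was -0.35 ± 0.479 (SE), with a 95% interval from -1.50 to 0.79 (limma adjusted p = 0.700), which holds values of both signs. Without *Znf143 -/-* library 1 the sign turned, with a log2 fold change of 0.17. An antisense gene overlaps *Cish* over 1459 bases, and its reads cannot be separated without strand.

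The short STAT binding motif TTCNNNGAA was searched on both strands in the RefSeq promoters (GRCm38.p6, 250 bases before to 50 after the start, 300 in all) of the members. It was found in 2 of the 11 promoters of the 9 member genes with an entry, 1 of *Socs3* and 1 of *Cish*, and in 8.30% of all 32851 promoters. *Socs2* had no entry. In *Znf143 f/f* cells these members had the widest spread between libraries (coefficients of variation 45.0% and 33.3%). In *Znf143 -/-* cells the values were 13.8% for *Socs3* and 50.7% for *Cish*. That of *Socs3* was there below *Socs2* (19.1%), *Jak2* (17.8%) and *Stat5a* (15.8%). A relation of motif and spread was not tested. The sites are shown, 5′ to 3′ on the strand of the gene, with the motif in capitals.
Socs3: cagccTTCTTAGAAgggag
Cish: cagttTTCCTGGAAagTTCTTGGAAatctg
The *Socs3* site (chr11:117969507-117969525, minus strand, as shown) has its first motif base at position -154 from the start. The *Cish* sites (chr9:107296654-107296683, plus strand, as shown) have theirs at positions 1 and 12, within the transcript. Pieces of the ZNF143 motif, ACTACAA and TTCCCAG, which 3.24% and 11.1% of all promoters hold on either strand, had no match in these windows of the 9 genes. A match of letters is a description of the sequence and does not show that a factor binds there.

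*Socs1* (chr16:10782240-10785536, minus strand), an inhibitor of JAK kinases and of interferon signals, was the member with the least spread besides *Stat5b* in *Znf143 -/-* cells. It had 10.2, 8.60 and 9.96 rescaled FPKM against 10.7, 10.2 and 10.6. The groups touched at about 10.2, and the log2 fold change was 0.13 (95% interval -0.099 to 0.36, limma adjusted p = 0.459). *Socs2* (chr10:95385362-95417180, minus strand), an inhibitor of growth hormone and STAT5 signals, had 16.8, 11.6 and 16.4 against 12.3, 18.0 and 16.9. The groups overlapped, and the log2 fold change was 0.077 (95% interval -0.40 to 0.55, limma adjusted p = 0.852). It was -0.094 without *Znf143 f/f* library 2 and -0.028 without *Znf143 -/-* library 2.

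*Znf143 f/f* library 2 was the lowest of its genotype for 10 of 10 members, while it was lowest for 44.7% of all genes tested. *Znf143 -/-* library 1 was lowest for 8 of 10 members, the exceptions being *Socs1* and *Socs3*, where it was highest, beside 45.7% of all genes. The distance of *Znf143 f/f* library 2 from the mean of libraries 1 and 3 had a median of 0.451 on the log2 scale, and was largest for *Socs3* with 1.37. Libraries 1 and 3 themselves differed by a median of 0.0282. In *Znf143 -/-* cells, library 1 stood 0.314 from the mean of libraries 2 and 3 in the median, and 1.57 for *Cish*, beside 0.0484 between libraries 2 and 3. The same *Znf143 f/f* library had a summed level of 5 erythroid markers of 225 rescaled FPKM, against 54.5 in library 1, 64.3 in library 3 and 48.9 to 52.9 in *Znf143 -/-* libraries. *Car1*, an erythroid carbonic anhydrase, made up 141 of it. The immediate early gene *Junb*, a STAT3 target, was at 181 rescaled FPKM there and at 414 and 383 in *Znf143 f/f* libraries 1 and 3. In *Znf143 -/-* libraries 1 to 3 *Junb* was at 271, 225 and 233, between these values. The part of these differences in the low member values was not tested.

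**Figure D3:**
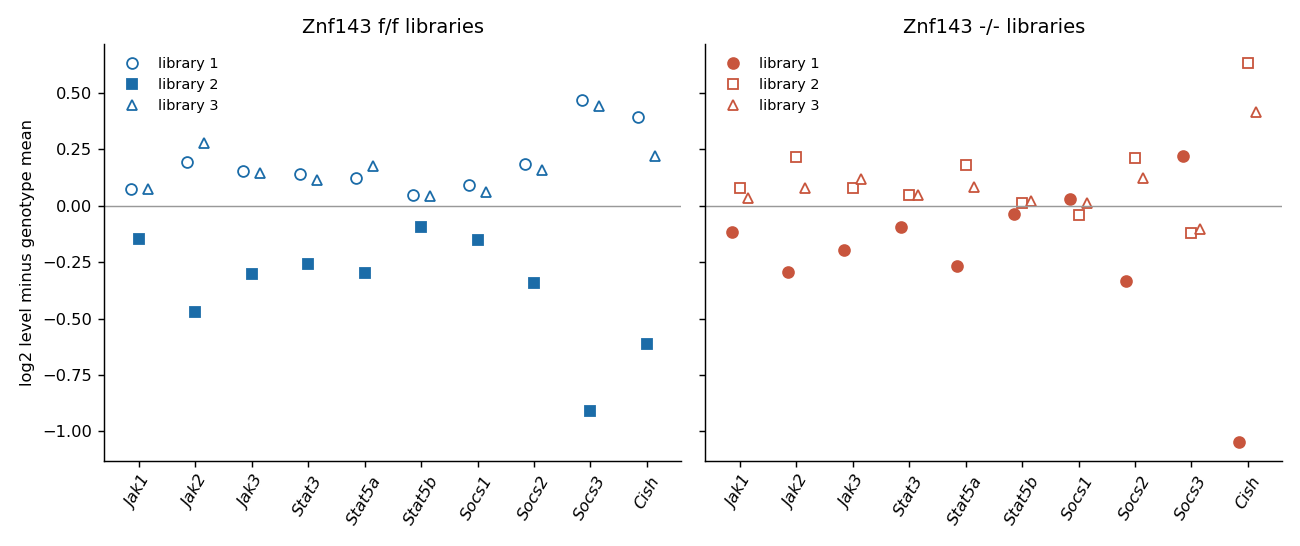
Level of each gene in each library minus the mean of its genotype (y axis, log2 of rescaled FPKM + 0.1), for *Znf143 f/f* (left) and *Znf143 -/-* libraries (right), with the library that stands apart filled. *Znf143 f/f* library 2 is below the mean for all 10 genes, and *Znf143 -/-* library 1 is below for 8 and above for *Socs1* and *Socs3*.

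Ratios of 2 genes within a library are free of the scaling between libraries and of a shift that all members share. They were examined after the values had been seen and are a description. The ratio of *Socs3* to each of the 9 other members was higher in every *Znf143 -/-* library than in every *Znf143 f/f* library. Relative to *Jak2* it was 1.26, 0.761 and 1.17 in *Znf143 f/f* and 3.93, 2.16 and 2.41 in *Znf143 -/-* libraries. Relative to *Cish*, it was 0.610, 0.467 and 0.677 against 4.08, 0.992 and 1.17, with the widest gap in library 1 of *Znf143 -/-*. These 9 ratios share *Socs3* and are not independent of each other.

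**Figure D4:**
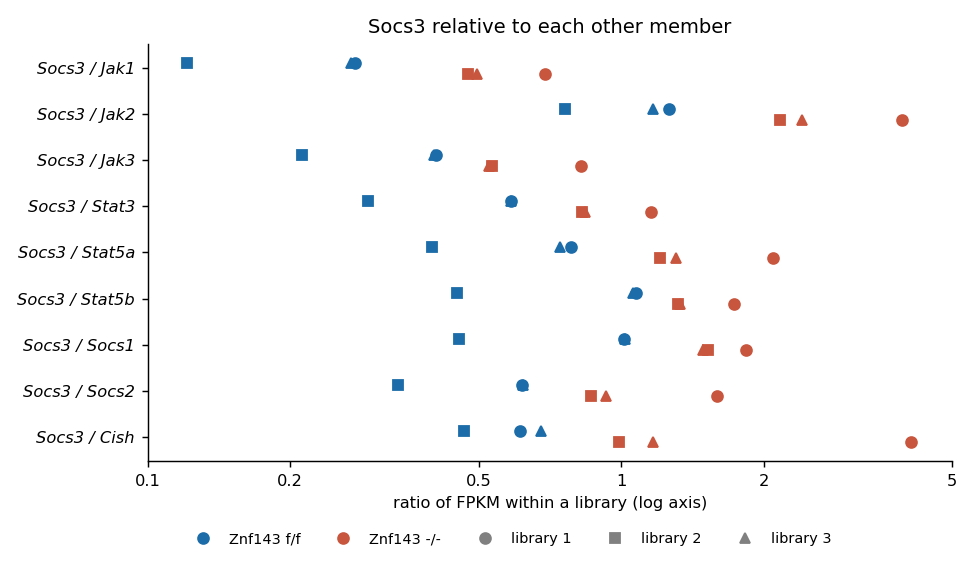
Ratio of the FPKM of *Socs3* to that of each other member within a library (x axis, logarithmic), for *Znf143 f/f* (blue) and *Znf143 -/-* libraries (red), with library number by shape. In each of the 9 ratios all red points lie to the right of all blue points, and *Znf143 f/f* library 2 is the lowest.

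Among the kinases and STAT genes, the ratio of *Jak3* to *Jak1* was 0.673, 0.571 and 0.667 in *Znf143 f/f* and 0.840, 0.888 and 0.941 in *Znf143 -/-* libraries. The ratio of *Stat3* to *Jak1* was 0.468, 0.414 and 0.458 against 0.597, 0.573 and 0.591. *Stat5b* per *Stat5a* was 0.731, 0.888 and 0.701 in *Znf143 f/f* and 1.21, 0.914 and 0.983 in *Znf143 -/-* libraries, so that *Stat5a* was the more abundant paralog in 3 of 3 and in 2 of 3 libraries. The ratios shown are among those that did not overlap between genotypes. By that choice every library is on its genotype's side, *Znf143 f/f* library 2 and *Znf143 -/-* library 1 included. Other ratios of kinases and STAT genes overlapped, among them *Jak2* to *Jak1*, *Stat5a* to *Jak1* and *Stat5b* to *Stat3*. Of the 45 ratios between members, 22 did not overlap between genotypes, beside 31.4% of all pairs of genes tested. The 9 ratios with *Socs3* are among the 22, and without them 13 of 36 did not overlap, near the share of all pairs. Each of them had an exact permutation p of 0.1, the smallest that 6 libraries allow.

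Of the receptor chains, 3 of 25 tested were called, all higher in *Znf143 -/-* cells (background 6.00%), and 7 of the 32 chains in the table were below the filter. The median log2 fold change of the 25 was 0.22 beside 0.0075 for all genes. *Il10ra*, the ligand-binding chain of the IL-10 receptor, had 5, 0 and 12 fragments in *Znf143 f/f* libraries, compared with 180, 231 and 226 in *Znf143 -/-* libraries. This is 0.0383 ± 0.0388 against 1.20 ± 0.124 rescaled FPKM (SD, n = 3), with a log2 fold change of 3.27 (limma adjusted p = 0.00229), whose size depends on the pseudocount, between 1.085 with a pseudocount of 1 and 5.13 with 0.01. Its *Znf143 f/f* mean is below the filter of 0.1, so it entered the fit through the *Znf143 -/-* libraries alone, and with a filter at a mean of 1 FPKM it was not tested. *Il3ra*, the IL-3 binding chain, had 5.62, 5.85 and 5.06 against 7.89, 11.2 and 10.5 rescaled FPKM (log2 fold change 0.81, limma adjusted p = 0.0308). *Il2rg*, the partner of JAK3, had 58.5, 43.9 and 55.6 against 73.0, 87.9 and 79.6 rescaled FPKM (log2 fold change 0.61, limma adjusted p = 0.0491). All 3 genes had every *Znf143 -/-* library above every *Znf143 f/f* library. With close libraries averaged the adjusted p-values of limma were 0.0751 for *Il10ra*, 0.348 for *Il3ra* and 0.348 for *Il2rg*. *Il10ra* was called in each fit that left out 1 of the 6 libraries. The calls of *Il3ra* and *Il2rg* were lost without *Znf143 f/f* library 1 (limma adjusted p = 0.105 and 0.0947), without *Znf143 f/f* library 3 (0.129 and 0.142), without *Znf143 -/-* library 2 (0.104 and 0.158) and without *Znf143 -/-* library 3 (0.144 and 0.179). The call of *Il2rg* was also lost with the FPKM as deposited (limma adjusted p = 0.0813), with the third *Znf143 -/-* library by its own total (0.0884), with a pseudocount of 0.01 (0.0534), without a filter (0.0511) and without the variance trend (0.0839). That of *Il3ra* was lost with the FPKM as deposited (limma adjusted p = 0.0512) and without the variance trend (0.0513).

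Of 15 STAT target genes, 2 were higher in *Znf143 -/-* cells and 13 were not called (background 6.00%), with a median log2 fold change of 0.079 beside 0.0075 for all genes. *Pim1*, a survival kinase induced through STAT5 and STAT3, had 30.0, 56.4 and 31.6 rescaled FPKM in *Znf143 f/f* libraries, compared with 75.8, 109 and 102 in *Znf143 -/-* libraries (log2 fold change 1.32, limma adjusted p = 0.0392). Unlike the members, it was highest of its group in *Znf143 f/f* library 2. *Cdkn1a*, the cell cycle inhibitor p21 and also a p53 target, had 17.9, 16.7 and 17.2 against 32.9, 30.7 and 30.6, with little spread in either group (log2 fold change 0.86 ± 0.0760 (SE), limma adjusted p = 0.00252). With close libraries averaged the adjusted p-values were 0.332 for *Pim1* and 0.132 for *Cdkn1a* in limma. The call of *Cdkn1a* held in each fit that left out 1 library. That of *Pim1* was lost without *Znf143 f/f* library 1 (limma adjusted p = 0.126) or 3 (0.146) and without *Znf143 -/-* library 2 (0.125) or 3 (0.153), and also without the variance trend (0.0621).

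No gene was called by limma among 9 ligands, 9 further JAK, STAT and SOCS genes and 12 further negative regulators, where 2, 1 and 3 genes had an unadjusted p under 0.05 (24.2% of all genes) and voom called 0, 0 and 2 (7.26% of all genes). The genes with the smallest adjusted p were *Il4* and *Il6* of the ligands, *Stat2* and *Socs5* of the families, and *Pias2* and *Cbl* of the regulators. *Il4* had 17.1 ± 2.66 rescaled FPKM in *Znf143 f/f* and 11.3 ± 1.02 in *Znf143 -/-* cells (SD, n = 3, limma adjusted p = 0.0546), and *Il6* was near the floor with 2 to 26 fragments (limma adjusted p = 0.149). *Stat2*, which carries interferon signals, had log2 fold change 0.39 and *Socs5* -0.30 (limma adjusted p = 0.184 and 0.229). *Pias2*, a SUMO ligase, had 4.78 ± 0.411 against 7.83 ± 1.35 rescaled FPKM (SD, n = 3, limma adjusted p = 0.0503) and *Cbl*, a ubiquitin ligase of activated receptors, had 2.54 ± 0.301 against 1.72 ± 0.181 (limma adjusted p = 0.0880). These 2 are the regulators that voom called, and with close libraries averaged their limma adjusted p-values were 0.443 and 0.658.

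**Figure D5:**
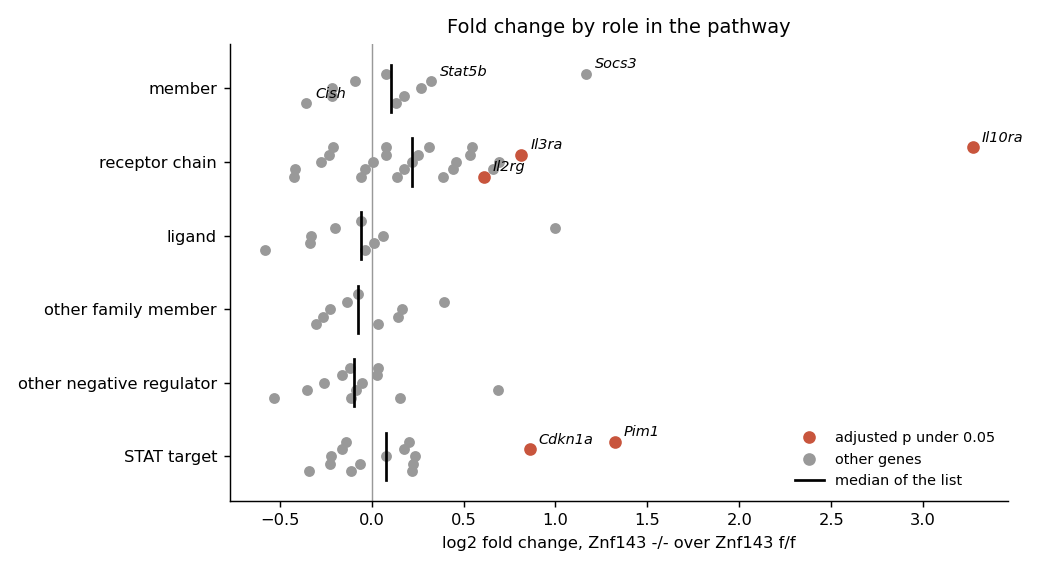
Log2 fold change (x axis) of the tested genes of each list of the pathway, with the list medians as black bars and genes at a limma adjusted p under 0.05 in red. The called genes are *Il10ra*, *Il3ra*, *Il2rg*, *Pim1* and *Cdkn1a*, all above 0, and the 10 members hold none.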

How the data were processed

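The 6 RNA-seq libraries of HSLAM cells, 3 per genotype, were used. The other 19 samples of the series (ChIP-seq and HiC) were not analysed here. Libraries were made from polyA RNA with SMART-Seq v4 and Nextera XT kits. After trimming (TrimGalore), the authors mapped read pairs with STAR on GRCm38, obtained gene counts from FeatureCounts and ran DESeq2, and they deposited 1 table with the FPKM of each library and the length of each gene. Their mean counts, fold changes and p-values in the same table were not used.

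FPKM times length gave whole fragments (within 0.05) for 99.9863% of 138696 values. The third *Znf143 -/-* library had been divided by the total of the second (48378188 in place of 57895793 fragments), so FPKM were rescaled by median-of-ratios factors, 0.911 to 1.21. All genes averaging 0.1 FPKM or more were fitted on log2(rescaled FPKM + 0.1) with limma 3.58.1 in R 4.3.3 (variance trend, no block), with Benjamini-Hochberg adjustment over all genes. The fit was also run on simulated fragments. The simulated libraries were drawn independently and hold no close pairs, so the run cannot show how such pairs affect the calls. A two-sided exact permutation test (scipy 1.17.1) was run per member and ratio. Ratios were examined after the values had been seen.

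The alternatives were FPKM as deposited, the third library by its own total, a pseudocount of 0.01 or 1, a filter at a mean of 1 FPKM or none at all, voom, no trend, the replicate number as a block, and each library left out. Averaging of close libraries was added after the data were seen. The 10 members and all lists were chosen with earlier results of these data known. The text names all members, *Zfp143*, the called genes of the other lists and, of lists with none, the 2 with the smallest adjusted p; markers and *Junb* are named as measured facts beside the results. Of 139 further listed symbols of pathway genes and markers, 17 were not found in the table.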

Additional observations from a re-analysis of the deposited data

How the results depend on the processing

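Of 160 fold changes (10 members under 16 alternatives), 154 kept their direction and stayed above the threshold, 5 reversed, and 1 passed the threshold. *Stat5a* turned to 0.021 with the FPKM as deposited and to 0.041 without *Znf143 -/-* library 1, *Cish* from -0.35 to 0.17 without *Znf143 -/-* library 1, and *Socs2* to -0.094 without *Znf143 f/f* library 2 and to -0.028 without *Znf143 -/-* library 2. With 1 library left out, the range was -0.24 to 0.041 for *Stat5a*, -0.67 to 0.17 for *Cish* and -0.094 to 0.24 for *Socs2*. The number of members called was 0 under each alternative except 1 without *Znf143 f/f* library 2 (leave-out range 0 to 1). The *Znf143 f/f* group of that fit is the close pair alone. The cause of these changes was not tested.

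The other pathway genes called, 5 in all, became 3 with the FPKM as deposited, 10 with voom, 2 without the variance trend, 0 with close libraries averaged (fewer samples), and 2 to 12 with 1 library left out. Genes called over the whole table, 1157, became 45 with close libraries averaged and 223 to 2239 with 1 library left out, lowest without *Znf143 -/-* library 3 and highest without *Znf143 f/f* library 2. The FPKM as deposited moved the median of all genes to 0.11, and 63.5% of calls were then higher, beside 50.1%. With the replicate number as a block, 191 genes, 2 other pathway genes and 0 members were called. Same-numbered libraries did not deviate together (correlations -0.0952, -0.0884 and 0.0353), so the numbers were not used as pairs. No source used here says which libraries are littermates. The block also ended the calls of *Il3ra*, *Il2rg* and *Pim1* (limma adjusted p = 0.0994, 0.171 and 0.0533). The number of libraries, 3 per genotype, of which 2 are close, limits the precision.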
